A study of Mus musculus with 24 samples.

Results

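Fatty acid use in the heart was followed through 9 genes, chosen by name from the Ensembl gene rows of the count tables: Cpt1a, Cpt1b, Acot1, Acot2, Ucp3, Plin2, Plin5, Cd36 and Angptl4. All 9 were found among the 52350 genes of each library, and all 9 were among the 15294 genes whose counts were high enough to test. Transcripts were measured by poly-A RNA sequencing of hearts from 24 male wild-type C57Bl/6 mice, aged 12 weeks and kept in 12 h of light and 12 h of darkness. There were 4 groups of 6 mice: exercised mice at ZT12 (ZT12-EX), sedentary mice at ZT12 (ZT12-SED), exercised mice at ZT0 (ZT0-EX) and sedentary mice at ZT0 (ZT0-SED). ZT is zeitgeber time, in hours since the lights came on, so ZT0 begins the rest phase and ZT12 the active phase of a mouse. After habituation, the exercised mice ran on a treadmill once, for 60 min at 10 m/min with no slope. How long after the bout the hearts were taken is not stated in the labels, and a single bout models acute exercise, not training. In every group, replicates 1 to 3 were sequenced on flow cell 1 and replicates 4 to 6 on flow cell 2, so each comparison could be repeated within a flow cell on 3 mice per group.

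The adult heart draws most of its energy from fatty acids. Peroxisome proliferator-activated receptors (PPARs) are nuclear receptors that bind fatty acids, pair with retinoid X receptors (RXRs) and switch on genes for fatty acid uptake, storage and oxidation. CD36 carries fatty acids across the cell membrane, the carnitine palmitoyltransferases CPT1A and CPT1B commit their acyl-CoA form to the mitochondrion, and the thioesterases ACOT1 and ACOT2 release the acid from acyl-CoA again. Perilipins PLIN2 and PLIN5 coat lipid droplets, UCP3 is a carrier of the inner mitochondrial membrane in muscle and heart, and ANGPTL4 is a secreted inhibitor of lipoprotein lipase, the enzyme that frees fatty acids from circulating lipoproteins.

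The hearts showed a time-of-day difference in 2 of the 9 genes and no detected response to the treadmill bout in any of them. Among all genes tested, 5.2% had an edgeR adjusted p under 0.05 for time of day in sedentary mice. For exercise this share was 1.08% at ZT0 and 0.294% at ZT12. In sedentary mice, Angptl4 and Plin2 were lower at ZT12 than at ZT0, at 0.339 and 0.655 times the ZT0 level. The lower levels of both genes rested in good part on the libraries of flow cell 1. Cd36 and Plin5 differed in opposite directions on that flow cell alone, beside a difference in how gene levels followed base composition.

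Library totals ranged from 9697334 to 23067191 counts. Cardiomyocyte transcripts were abundant in all 24 libraries, with a summed level of 9 markers of 30700 to 199000 CPM (counts relative to the library total, scaled by TMM). Transcripts of fast skeletal muscle reached a summed 723 to 3150 CPM over 12 markers in 6 libraries (ZT0-EX 4, 5 and 6, and replicate 6 of each other group), against 3.26 to 45.2 CPM in the other 18. Transcripts of the mitochondrial genome took 2.7 to 55.1% of counts. Across genes, a library's departure from the average library followed transcript GC content, with Spearman correlations of -0.79 to -0.64 in ZT12-EX, -0.88 to -0.83 in ZT12-SED, -0.28 to -0.21 in ZT0-EX and -0.58 to 0.3 in ZT0-SED among libraries of flow cell 1, and of 0.49 to 0.78 in all 12 libraries of flow cell 2. Libraries ZT12-SED 1, ZT12-SED 2 and ZT12-EX 4 stood apart from the rest, with mitochondrial shares of 53.4, 55.1 and 2.7%. Several fold changes are also given without them, but the ratios of counts between 2 genes are not given without all 3. Without them, ZT12-SED 3 is the only ZT12-SED library of flow cell 1. In whole hearts, fewer cells of a type and less RNA per cell cannot be told apart.

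Among the 9 genes, Cd36 was by far the most abundant per length of annotated exon, with a median of 328 CPM per kb over the 24 libraries. Plin5 followed at 39.1 CPM per kb, then Plin2 at 13.2, Acot2 at 11.3 and Ucp3 at 8.28. Cpt1a stood at 4.44 CPM per kb, Acot1 at 2.12, Angptl4 at 1.98 and Cpt1b at 1.42. The ranges over libraries of all neighbours in this order overlapped, even those of Cd36 (72.5 to 1360 CPM per kb) and Plin5 (11.6 to 87.7). CPT1B is known as the main carnitine palmitoyltransferase of adult heart muscle, yet its row stood lowest. Of the 3372 annotated exon bases of Cpt1b, 2744 (81.4%) are also annotated to Gm44502 on the same strand, whose row held 2 counts in all 24 libraries together. Counting that leaves out reads shared by both genes would leave 628 bases for Cpt1b, and over those the median was 7.6 CPM per kb. How shared reads were treated is not stated in the labels, so the level of Cpt1b is uncertain, and its counts, from 1 to 223 per library, were low.

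**Figure D1:**
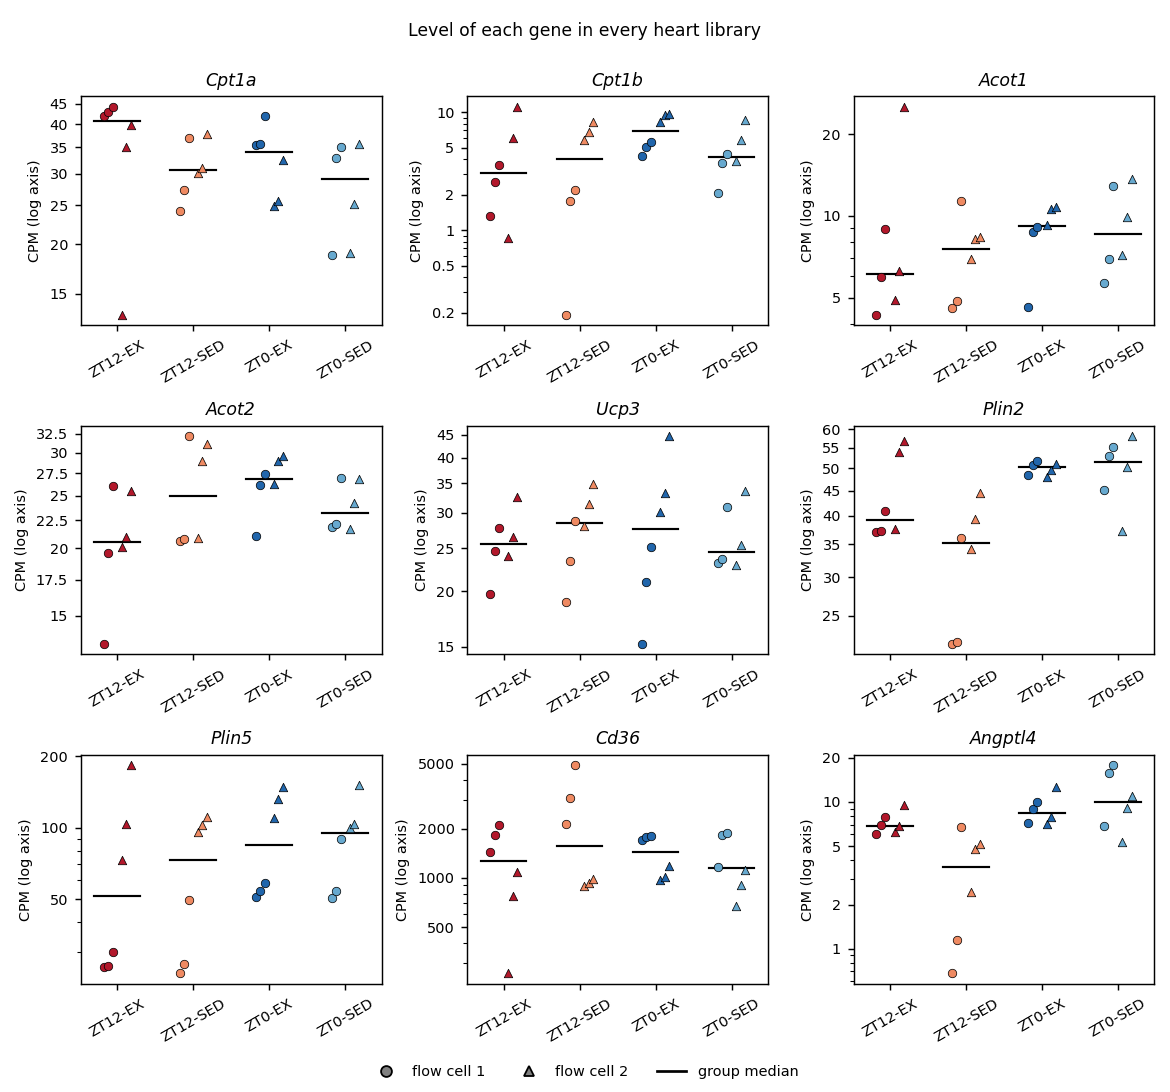
Level of each gene in each of the 24 heart libraries, in TMM-scaled CPM on a log axis, by group. Circles are libraries of flow cell 1, triangles those of flow cell 2 and bars the group medians; every pair of compared groups overlapped for every gene, and the lowest Angptl4 and Plin2 values were the ZT12-SED libraries 1 and 2 of flow cell 1.

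Exercise was compared first at ZT0, to see what the bout did at the start of the rest phase. Of the 9 genes, 0 passed the threshold (adjusted p under 0.05 in edgeR's quasi-likelihood test, by Benjamini-Hochberg across every gene tested), where 1.08% of all genes tested did, and 0 reached an unadjusted p under 0.05. DESeq2 and limma-voom also called 0, where they called 1.75% and 1.12% of all genes. The log2 fold changes ran from -0.29 to 0.56, with a median of 0.04 against -0.01 over all genes tested. The 95% intervals of the 9 genes reached from -1.01 to 1.36, so changes of up to that size were not excluded. The largest estimate was that of Cpt1b, with a median of 6.91 CPM (4.28 to 9.65) in ZT0-EX and 4.16 CPM (2.06 to 8.55) in ZT0-SED, a log2 fold change of 0.56 ± 0.39 (SE; edgeR adjusted p = 0.578). Plin2 was the most even of all, at 47.9 to 51.7 CPM in ZT0-EX against 37.2 to 58.1 CPM in ZT0-SED, with a log2 fold change of 0.00 ± 0.16.

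Ucp3 differed between flow cells in exercised hearts at ZT0. In ZT0-EX it had 15.2, 21 and 25.1 CPM on flow cell 1 and 44.7, 30.2 and 33.3 CPM on flow cell 2. In ZT0-SED it had 23.6, 23.2 and 30.9 CPM on flow cell 1 and 22.9, 25.4 and 33.6 CPM on flow cell 2. The 3 ZT0-EX libraries of flow cell 2 are those with skeletal muscle transcripts (879 to 3150 CPM), and the highest Ucp3 value, in ZT0-EX 4, belongs to the library with the most. UCP3 is abundant in skeletal muscle. The log2 fold change was 0.04 ± 0.18 (edgeR adjusted p = 0.944) over all libraries and -0.25 ± 0.22 (edgeR adjusted p = 0.774) without the 6 libraries. The fit without them holds no ZT0-EX library of flow cell 2. On flow cell 1 alone the estimate was -0.34 ± 0.24 (edgeR adjusted p = 0.732). The log2 CPM of Ucp3 correlated with the library's trend over GC content at 0.58 over the 24 libraries. Within flow cells 1 and 2 it correlated at 0.14 and 0.13. The part of skeletal muscle transcripts or of the GC trend in the Ucp3 level was not tested.

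At ZT12, the start of the active phase, 0 of the 9 genes passed the threshold for exercise, where 0.294% of all genes tested did. DESeq2 and limma-voom called 0 as well, where they called 1.48% and 0.229% of all genes. An unadjusted p under 0.05 was reached by 3 genes, Angptl4, Plin2 and Cd36. The median log2 fold change was 0.11 over the 9 genes and 0.06 over all genes tested, and the 95% intervals reached from -1.27 to 1.73.

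Angptl4 gave the largest estimate. It had 7.85, 6.99 and 6.08 CPM on flow cell 1 and 6.81, 9.57 and 6.19 CPM on flow cell 2 in ZT12-EX. In ZT12-SED it had 1.15, 0.679 and 6.78 CPM on flow cell 1 and 2.43, 5.17 and 4.75 CPM on flow cell 2. The exercised hearts were close to each other and the sedentary ones were not: 4 of 6 ZT12-EX libraries lay above every ZT12-SED library, and the groups overlapped. The log2 fold change was 0.98 ± 0.37 (edgeR unadjusted p = 0.0133, adjusted p = 0.242) with a 95% interval of 0.22 to 1.73. Without the 3 libraries that stood apart it was 0.54 ± 0.31 (edgeR adjusted p = 0.997).

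Plin2 had 37.2, 40.9 and 37.1 CPM on flow cell 1 and 56.7, 53.9 and 37.6 CPM on flow cell 2 in ZT12-EX, against 21.9, 22.1 and 36.1 CPM on flow cell 1 and 39.3, 44.4 and 34.2 CPM on flow cell 2 in ZT12-SED. All 6 ZT12-EX libraries lay above the ZT12-SED median, and 2 lay above every ZT12-SED library. This gave a log2 fold change of 0.41 ± 0.16 (edgeR unadjusted p = 0.0187, adjusted p = 0.255), and 0.12 ± 0.14 (edgeR adjusted p = 0.997) without the 3 libraries. Cd36 pointed the other way, with a log2 fold change of -0.69 ± 0.28 (edgeR adjusted p = 0.264), and of -0.06 ± 0.18 (edgeR adjusted p = 0.997) without the 3 libraries.

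The other 6 genes lay between log2 fold changes of -0.30 ± 0.16 for Acot2 and 0.29 ± 0.34 for Acot1 at ZT12, with edgeR adjusted p-values of 0.337 and 0.648. Without the 3 libraries Acot1 was at -0.07 ± 0.28 (edgeR adjusted p = 0.997). Both thioesterase genes share sequence, and whether reads were exchanged between them was not tested. Cpt1a had a median of 40.8 CPM (13.3 to 44.2) in ZT12-EX and 30.7 CPM (24.2 to 37.8) in ZT12-SED. Its low value of 13.3 CPM was in ZT12-EX 4, and the log2 fold change was 0.18 ± 0.22 (edgeR adjusted p = 0.674). Ucp3 and Plin5 gave estimates of -0.08 ± 0.18 and -0.00 ± 0.24, and Cpt1b, whose row is uncertain, gave 0.11 ± 0.40. With GC offsets, a correction for the trend with base composition, Plin5 was at -0.60 ± 0.25 (edgeR adjusted p = 0.337) and Acot2 at -0.52 ± 0.19 (edgeR adjusted p = 0.262).

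Whether the exercise effect depended on time of day was tested as the difference between both effects. No gene of the 15294 passed (0.0%), with 1226 at an unadjusted p under 0.05, and 0 of the 9 passed. DESeq2 called 5 genes (0.0327%) and limma-voom 0 (0.0%) over all genes tested, and each called 0 of the 9. The largest differences of log2 fold changes, ZT12 effect minus ZT0 effect, were 1.26 ± 0.51 for Angptl4 and -0.87 ± 0.40 for Cd36, both with an edgeR adjusted p of 0.571. The 95% interval for Angptl4 was 0.22 to 2.31, and without the 3 libraries the difference was 0.81 ± 0.40 (edgeR adjusted p = 0.996). That for Cd36 was then -0.23 ± 0.24 (edgeR adjusted p = 0.996).

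**Figure D2:**
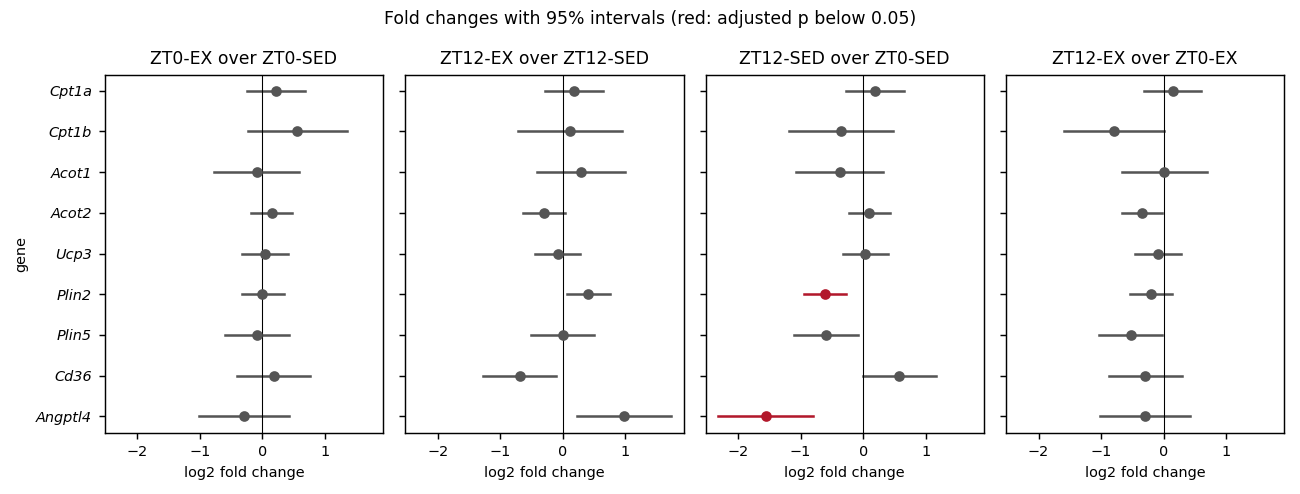
Log2 fold change of each gene with its 95% interval in the 2 exercise comparisons and the 2 time-of-day comparisons, from the fit to all 24 libraries. Red marks an adjusted p under 0.05, reached by Angptl4 (-1.56) and Plin2 (-0.61) for ZT12-SED over ZT0-SED; all other intervals belong to genes that did not pass.

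Time of day without exercise was compared in ZT12-SED over ZT0-SED. Here 2 of the 9 genes passed, both lower at ZT12, where 5.2% of all genes tested passed and 2.74% passed as lower. With 9 genes, a share of 2 rests on few calls, and nothing particular to the group is read from it. DESeq2 and limma-voom called the same number, 2 of 9, where they called 19.1% and 4.85% of all genes. The median log2 fold change was -0.35 over the 9 genes and -0.01 over all genes tested.

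Angptl4, the lipase inhibitor, had the largest difference. It had 1.15, 0.679 and 6.78 CPM in ZT12-SED on flow cell 1, against 6.89, 15.7 and 17.7 CPM in ZT0-SED there. The values of ZT12-SED 1 and ZT12-SED 2 rested on only 6 and 7 counts. On flow cell 2 Angptl4 had 2.43, 5.17 and 4.75 CPM in ZT12-SED, against 9.03, 11.0 and 5.33 CPM in ZT0-SED. On each flow cell, all 3 ZT12-SED libraries were below all 3 ZT0-SED libraries; over both, 5 of 6 ZT12-SED libraries lay below every ZT0-SED library and the groups overlapped by the sixth. Means were 3.49 ± 2.44 CPM in ZT12-SED and 10.9 ± 4.89 CPM in ZT0-SED (SD, n = 6 each). The log2 fold change was -1.56 ± 0.37 (edgeR adjusted p = 0.016) with a 95% interval of -2.32 to -0.80.

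Fits to each flow cell alone gave -2.07 ± 0.56 for Angptl4 on flow cell 1 (edgeR adjusted p = 0.0104), where 43.5% of all genes tested passed, and -1.03 ± 0.37 on flow cell 2 (edgeR adjusted p = 0.698), where 0.231% passed. Without the 3 libraries that stood apart, Angptl4 still passed, at -1.11 ± 0.30 (edgeR adjusted p = 0.045). With offsets that removed each library's trend over GC content it was -1.53 ± 0.36 (edgeR adjusted p = 0.0153).

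Plin2, a coat protein of lipid droplets, had 21.9, 22.1 and 36.1 CPM in ZT12-SED on flow cell 1, against 52.8, 45.1 and 55.3 CPM in ZT0-SED there. On flow cell 2 it had 39.3, 44.4 and 34.2 CPM in ZT12-SED, against 58.1, 50.2 and 37.2 CPM in ZT0-SED. The flow cell 1 groups were separate, while on flow cell 2 ZT0-SED 6 lay within the ZT12-SED range. Means were 33.0 ± 9.20 CPM in ZT12-SED and 49.8 ± 7.59 CPM in ZT0-SED (SD, n = 6 each). That is a log2 fold change of -0.61 ± 0.16 (edgeR adjusted p = 0.0346).

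The call for Plin2 was less secure than that for Angptl4. The estimate was -0.96 ± 0.21 on flow cell 1 (edgeR adjusted p = 0.00389), and it was -0.32 ± 0.22 on flow cell 2 (edgeR adjusted p = 0.999). It did not pass without the 3 libraries (-0.39 ± 0.14, edgeR adjusted p = 0.139), and leaving out either ZT12-SED 1 or ZT12-SED 2 alone, or any of ZT0-SED 1 to 4, also ended the call. With GC offsets it passed at -0.49 ± 0.13 (edgeR adjusted p = 0.0319).

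**Figure D3:**
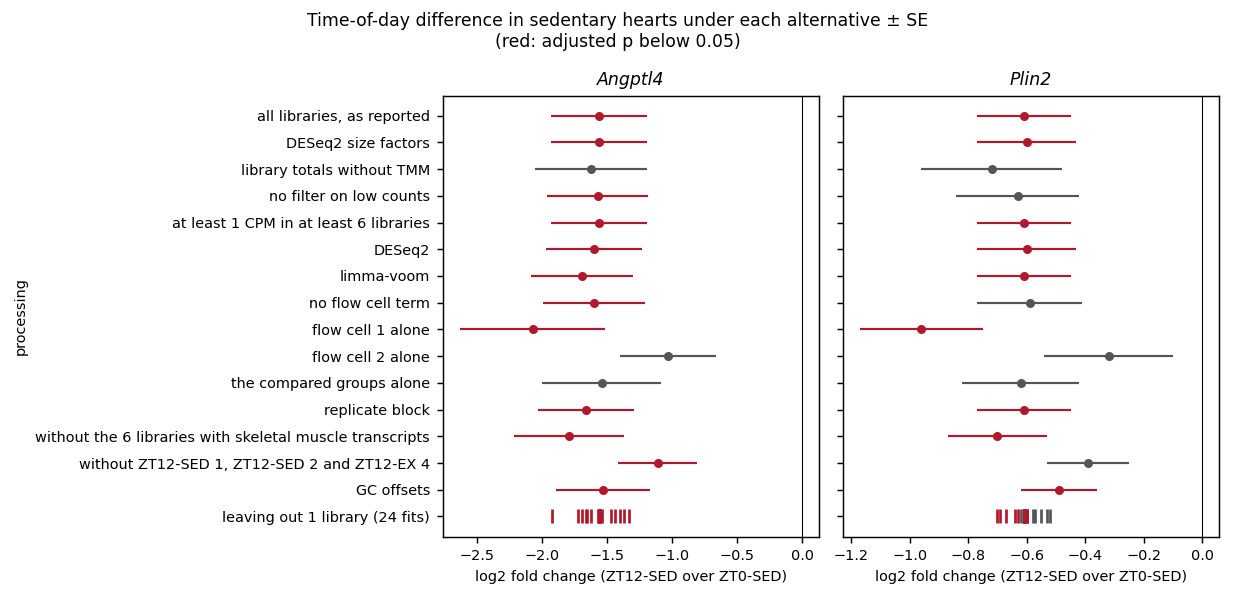
Log2 fold change ± SE of Angptl4 and Plin2 for ZT12-SED over ZT0-SED under each alternative way of processing, with the 24 fits that leave out 1 library as ticks in the lowest row. All estimates lie below 0; Angptl4 passed (red) in 24 of 24 leave-one-out fits and Plin2 in 18 of 24.

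Angptl4 and Plin2 also moved together from library to library, with a Pearson correlation of 0.85 between their log2 CPM over 24 libraries after removal of flow cell means, the highest of the 36 pairs among the 9 genes. The points share libraries, depth, base composition and the group differences themselves, so the value is a description. Adipocytes express Angptl4 strongly, and fat lies on the heart's surface. The summed level of 8 adipocyte markers was 0.485 to 149 CPM in ZT12-SED and 3.65 to 63.4 CPM in ZT0-SED. On flow cell 1 it was 3.45, 0.485 and 1.85 CPM in ZT12-SED, against 3.65, 4.33 and 17.6 CPM in ZT0-SED, lower like both genes. On flow cell 2 it was 16.9 to 149 CPM in ZT12-SED, against 12.6 to 63.4 CPM in ZT0-SED, and Angptl4 was lower at ZT12 there too. Of the 5 adipocyte markers with enough counts, 0 passed in any comparison, and Adipoq, which defines the type, was above 0 in all 24 libraries, at 0.194 to 23.2 CPM. For exercise at ZT12 on flow cell 1, where Angptl4 also differed most, the sum was 41.1, 16.0 and 8.02 CPM in ZT12-EX against the 3 ZT12-SED values above. Cidea, a marker of brown adipocytes, was lower, at 13.5 ± 7.24 CPM in ZT12-SED and 23.4 ± 5.53 CPM in ZT0-SED (SD, n = 6 each), a log2 fold change of -0.96 ± 0.24 (edgeR adjusted p = 0.0253). Its difference of mean log2 CPM was -1.64 within flow cell 1 and -0.27 within flow cell 2, and Ucp1, which defines brown fat, was at 0 in 11 of 24 libraries. The summed level of the 9 cardiomyocyte markers on flow cell 1 was lower as well, at 33900 to 41600 CPM in ZT12-SED and 51300 to 70100 CPM in ZT0-SED, while on flow cell 2 it was 57300 to 69800 CPM in ZT12-SED, inside the 51100 to 96200 CPM of ZT0-SED. The mitochondrial share on flow cell 1, where both genes were lower, was higher, at 40.7 to 55.1% in ZT12-SED and 25.5 to 34.2% in ZT0-SED. Its range on flow cell 2, 14.7 to 20.7% in ZT12-SED, lay inside that of ZT0-SED, 8.35 to 23.7%. The part of fat, of cardiomyocyte content or of the mitochondrial share in the Angptl4 and Plin2 levels was not tested.

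**Figure D4:**
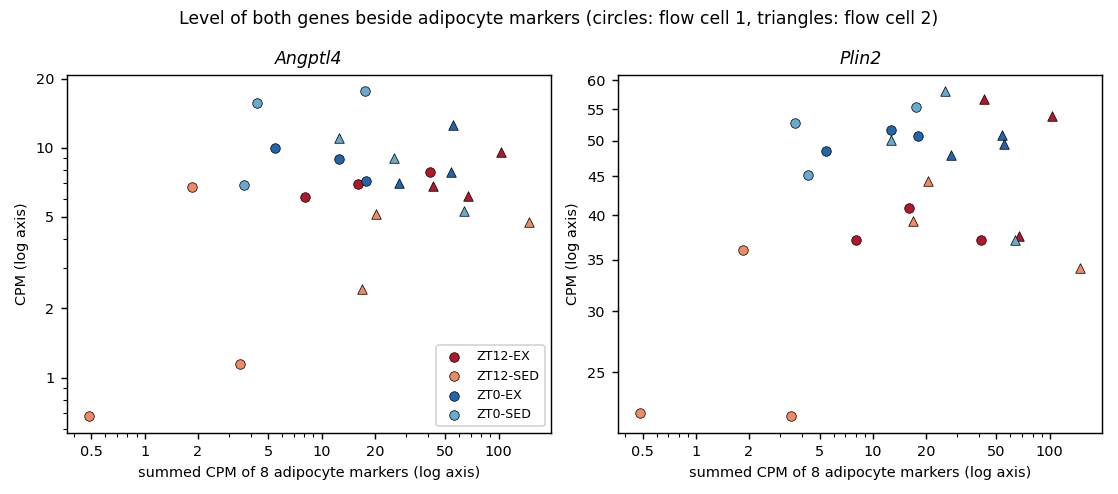
CPM of Angptl4 and of Plin2 in each library against the summed CPM of 8 adipocyte markers, both on log axes, coloured by group, with circles for flow cell 1 and triangles for flow cell 2. The ZT12-SED libraries 1 and 2 are low on both axes, and the library with the highest marker sum, 149 CPM, is a ZT12-SED library with 4.75 CPM of Angptl4.

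The promoter of Plin2 is shown because Plin2 passed, and because it was the one window at hand that held both kinds of motif searched: the core site AGGTCA of nuclear receptors such as PPARs, and the E-box CACGTG that clock factors bind. The window runs from 250 bases before to 50 bases after the RefSeq start site, at chr4:86670010-86670309 on the minus strand of GRCm38.p6. Capitals mark the core site on the opposite strand (TGACCT) and the E-box.
Plin2 promoter: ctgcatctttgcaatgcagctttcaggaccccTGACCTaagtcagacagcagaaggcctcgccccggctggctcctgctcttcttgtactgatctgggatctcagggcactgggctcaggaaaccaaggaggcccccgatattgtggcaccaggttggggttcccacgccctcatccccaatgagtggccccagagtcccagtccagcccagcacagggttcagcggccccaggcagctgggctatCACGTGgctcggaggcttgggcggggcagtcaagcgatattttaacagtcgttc

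RefSeq windows were at hand for 7 of the 9 genes, not for Cpt1b and Angptl4. On either strand, the core site lay in the windows of 5 genes (Cpt1a, Ucp3, Plin2, Plin5 and Cd36) and in 16.3% of 32851 mouse promoter windows of the same length. The full direct repeat AGGTCANAGGTCA, which contains the core site, lay in 0 of the 7 and in 0.0396% of all windows. The E-box lay in the Plin2 window alone among the 7, and in 7.15% of all windows. Plin5, Cd36, Cpt1a and Ucp3 hold a core site and did not pass in any comparison of the reported fit to all libraries. Plin2 was the only passing gene among the 7, and Angptl4 had no window. A link between motif and call therefore cannot be judged here.

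Plin5 and Cd36 lay at the ends of the GC range of the 9 transcripts, at 58.9% and 38.4%, with the other 7 between 50.7 and 53.9%. Plin5, the perilipin of oxidative tissue, had 49.7, 26.6 and 24.3 CPM in ZT12-SED on flow cell 1, against 54.0, 50.3 and 89.8 CPM in ZT0-SED there. On flow cell 2 it had 103, 96.2 and 111 CPM in ZT12-SED, against 152, 104 and 100 CPM in ZT0-SED. The ZT12-SED libraries were the lower ones on flow cell 1, and the groups overlapped on flow cell 2. The log2 fold change was -0.60 ± 0.25 (edgeR adjusted p = 0.103) over all libraries.

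Cd36, the fatty acid transporter, had 4890, 3080 and 2140 CPM in ZT12-SED on flow cell 1, against 1890, 1820 and 1170 CPM in ZT0-SED there. On flow cell 2 it had 989, 936 and 898 CPM in ZT12-SED, against 676, 900 and 1120 CPM in ZT0-SED. The flow cell 1 groups were separate, with ZT12-SED the higher, and the flow cell 2 groups overlapped. Capillary endothelium also expresses Cd36. The summed level of 8 endothelial markers on flow cell 1 was 449 to 749 CPM in ZT12-SED and 798 to 861 CPM in ZT0-SED. On flow cell 2 the sum was 772 to 857 CPM in ZT12-SED and 762 to 945 CPM in ZT0-SED. The part of endothelial content in the Cd36 level was not tested. The log2 fold change was 0.58 ± 0.28 (edgeR adjusted p = 0.153) over all libraries, and 0.16 ± 0.17 (edgeR adjusted p = 0.599) without the 3 libraries that stood apart.

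On flow cell 1 alone, 4 of the 9 genes passed: Angptl4, Plin2, Plin5 (-1.0 ± 0.28, edgeR adjusted p = 0.0121) and Cd36 (1.01 ± 0.31, edgeR adjusted p = 0.0173), where 43.5% of all genes did. On flow cell 2 alone 0 of the 9 passed, with Plin5 at -0.21 ± 0.31 and Cd36 at 0.06 ± 0.41, where 0.231% did. Over the 24 libraries, the log2 CPM of Plin5 correlated with the library's GC trend at 0.92 and that of Cd36 at -0.80. Within flow cell 1 these were 0.84 and -0.67 (12 libraries), and within flow cell 2 they were -0.11 and 0.12. Plin2 and Angptl4 also followed the trend, at 0.50 and 0.28 over the 24 libraries. Their correlations were 0.77 and 0.62 within flow cell 1, and 0.04 and 0.02 within flow cell 2. The points share flow cell, group and depth. With GC offsets, Plin5 was 0.25 ± 0.25 (edgeR adjusted p = 0.64) and Cd36 was -0.11 ± 0.16 (edgeR adjusted p = 0.765), both with the opposite sign.

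**Figure D5:**
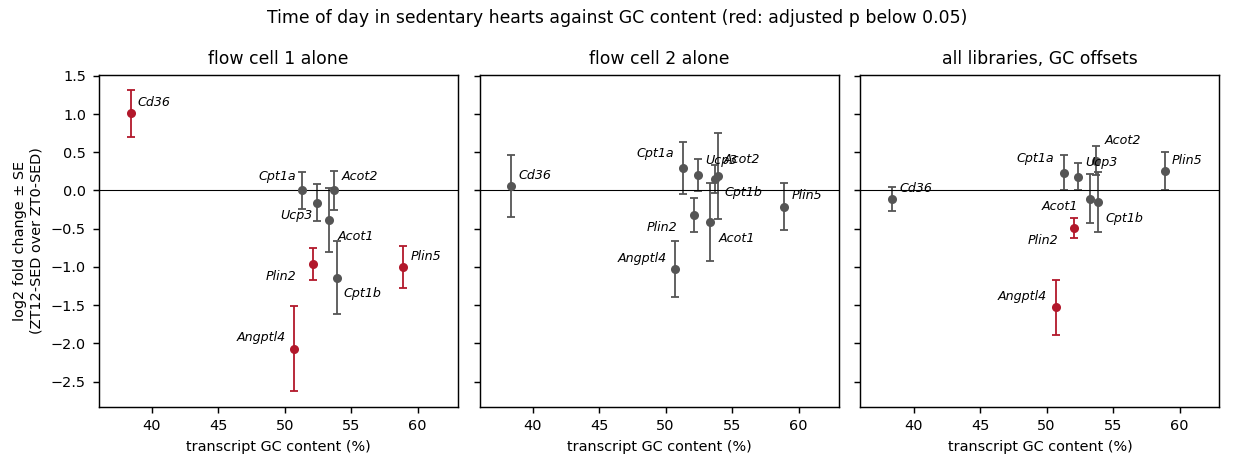
Log2 fold change ± SE of the 9 genes for ZT12-SED over ZT0-SED against the GC content of the transcript, from fits to flow cell 1 alone, flow cell 2 alone and all libraries with GC offsets. Red marks an adjusted p under 0.05; Cd36 (38.4% GC) and Plin5 (58.9% GC) lie apart on flow cell 1 at 1.01 and -1.0 and between -0.21 and 0.25 elsewhere, while Angptl4 is the lowest gene in all 3 panels.

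The remaining 5 genes did not pass for time of day in sedentary mice. Cpt1a gave 0.19 ± 0.22, Acot2 gave 0.10 ± 0.16, Ucp3 gave 0.03 ± 0.18, Cpt1b gave -0.35 ± 0.40 and Acot1 gave -0.37 ± 0.34, all log2 fold changes ± SE, with edgeR adjusted p-values of 0.432 to 0.913. For Ucp3, the narrowest of these beside Acot2, medians were 28.5 CPM (18.9 to 34.9) in ZT12-SED and 24.5 CPM (22.9 to 33.6) in ZT0-SED.

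After exercise, the comparison of ZT12-EX with ZT0-EX called 0 of the 9 genes, where 1.65% of all genes tested passed. DESeq2 and limma-voom called 0, where they called 3.5% and 1.76% of all genes, and 2 genes had an unadjusted p under 0.05. The median log2 fold change was -0.29 over the 9 genes and 0.02 over all genes, and 7 of 9 estimates were negative. Angptl4 had a median of 6.90 CPM (6.08 to 9.57) in ZT12-EX and 8.41 CPM (7.06 to 12.6) in ZT0-EX, a log2 fold change of -0.30 ± 0.35 (edgeR adjusted p = 0.749). Plin2 had a median of 39.2 CPM (37.1 to 56.7) in ZT12-EX and 50.2 CPM (47.9 to 51.7) in ZT0-EX, at -0.20 ± 0.16 (edgeR adjusted p = 0.606). Passing in sedentary and not in exercised mice is not a difference between them: that difference equals the one between the exercise effects, which did not pass for either gene.

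The largest estimate in exercised mice was that of Cpt1b, at -0.80 ± 0.39 (edgeR adjusted p = 0.353), followed by Plin5 at -0.52 ± 0.25 (edgeR adjusted p = 0.332) and Acot2 at -0.35 ± 0.16 (edgeR adjusted p = 0.313). Without the 3 libraries that stood apart, Cpt1b was at -0.57 ± 0.26 (edgeR adjusted p = 0.173). Plin5 had 26.0, 29.8 and 25.8 CPM on flow cell 1 and 183, 73.3 and 104 CPM on flow cell 2 in ZT12-EX, against 58.4, 54.1 and 51.0 CPM on flow cell 1 and 110, 148 and 132 CPM on flow cell 2 in ZT0-EX. All ZT12-EX values lay below those of ZT0-EX on the same flow cell except the 183 CPM of ZT12-EX 4. Without that library Plin5 passed, at -0.80 (edgeR adjusted p = 0.036). It did not pass with GC offsets, at -0.31 ± 0.25 (edgeR adjusted p = 0.559), or on flow cell 2 alone, at -0.05 ± 0.31 (edgeR adjusted p = 0.966).

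Both carnitine palmitoyltransferase genes were also compared as a ratio of counts within each library, which does not depend on scaling. The mean log2 ratio of Cpt1a to Cpt1b was 3.48 ± 1.12 in ZT12-EX, 3.52 ± 1.66 in ZT12-SED, 2.25 ± 0.75 in ZT0-EX and 2.62 ± 0.53 in ZT0-SED (SD, n = 6 each). ZT12-SED 1, with 126 counts of Cpt1a and 1 of Cpt1b, had the highest ratio at 6.4. On flow cell 2, ZT12-EX 4, with 123 counts of Cpt1a and 8 of Cpt1b, was at 3.86. ZT12-EX 5 and 6 were at 2.54 and 1.84. The ratio was higher in ZT12-EX than in ZT0-EX by 1.22 (two-sided exact permutation within flow cells, p = 0.01, adjusted p = 0.08 over 8 tests), at 1.29 within flow cell 1 and 1.15 within flow cell 2. In ZT12-SED it was 0.90 above ZT0-SED (exact permutation p = 0.035, adjusted p = 0.0933), at 1.70 within flow cell 1 and 0.10 within flow cell 2. It was 0.37 lower in ZT0-EX than in ZT0-SED (difference -0.37, exact permutation p = 0.025, adjusted p = 0.0933), at -0.18 within flow cell 1 and -0.56 within flow cell 2. At ZT12 the difference for exercise was -0.05 (exact permutation p = 0.935, adjusted p = 0.935), at -0.59 within flow cell 1 and 0.49 within flow cell 2. None passed after adjustment. The smallest p this design allows is 0.005, and the ratio carries the uncertainty of the Cpt1b row. The log2 CPM of Cpt1a and Cpt1b correlated with the library's GC trend with opposite signs, at -0.38 and 0.61 over the 24 libraries. Within flow cell 1 the correlations were -0.39 and 0.43. The part of the GC trend in the ratio was not tested.

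Acot1 and Acot2 are neighbouring genes on chromosome 12 that make a cytosolic and a mitochondrial thioesterase. Their coding sequences, of 1257 and 1359 bases, align over 1236 bases with 1178 identical (95.3%), and the longest identical run is 273 bases. Of all 50-base windows of the transcripts, 33.6% in Acot1 and 27.7% in Acot2 also occur in another gene. The stretch below is the 90-base window where they differ most, at coding bases 797 to 886 of Acot1 and 920 to 1009 of Acot2 (GENCODE M21), and is shown for how the pair can be told apart there; capitals mark the 14 positions that differ.
Acot1: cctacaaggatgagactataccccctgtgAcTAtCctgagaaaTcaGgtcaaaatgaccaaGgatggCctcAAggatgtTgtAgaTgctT
Acot2: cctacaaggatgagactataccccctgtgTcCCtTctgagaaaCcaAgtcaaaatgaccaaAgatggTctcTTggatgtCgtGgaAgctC

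Acot1 had a median of 6.12 CPM (4.33 to 25.2) in ZT12-EX, 7.58 CPM (4.57 to 11.3) in ZT12-SED, 9.20 CPM (4.63 to 10.8) in ZT0-EX and 8.56 CPM (5.67 to 13.7) in ZT0-SED. Acot2 had 20.5 CPM (13.3 to 26.0) in ZT12-EX, 25.0 CPM (20.6 to 32.2) in ZT12-SED, 26.8 CPM (21.1 to 29.6) in ZT0-EX and 23.2 CPM (21.7 to 26.9) in ZT0-SED. All 4 groups overlapped for both genes. ZT12-EX 4, with 25.2 CPM of Acot1, was the only library in which Acot1 counts exceeded Acot2 counts, at a log2 ratio of 0.26 against -2.18 to -0.66 in the other 23. Differences in the log2 ratio of Acot1 to Acot2 were 0.40 for exercise at ZT12, -0.20 for exercise at ZT0, -0.42 for time of day in sedentary mice and 0.18 in exercised mice, with exact permutation adjusted p-values of 0.58, 0.58, 0.19 and 0.869. Summing both genes, which removes any exchange of reads between them, gave log2 fold changes of -0.14 for exercise at ZT12, 0.08 for exercise at ZT0, -0.01 for time of day in sedentary mice and -0.24 in exercised mice, with edgeR adjusted p-values of 0.677, 0.86, 0.966 and 0.567.

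Around the 9 genes, 73 further genes of fatty acid use were listed in 8 sets by step, and 65 had enough counts to test. None of the 65 passed for exercise at either time or for the difference between the exercise effects. Closest at ZT0 was Pdk4, a kinase that turns the heart from glucose to fat and is a known PPAR target, with 390 ± 118 CPM in ZT0-EX and 197 ± 69.7 CPM in ZT0-SED (SD, n = 6 each; log2 fold change 1.05 ± 0.31, edgeR adjusted p = 0.139). Plin4, another perilipin, was at 0.97 ± 0.33 (edgeR adjusted p = 0.239), and Ppara, the PPAR that leads in heart, at 1.19 ± 0.52 (edgeR adjusted p = 0.428). At ZT12 the smallest p-values of the 8 sets belonged to genes such as Etfa, an electron carrier of β-oxidation, at -0.63 ± 0.21 (edgeR adjusted p = 0.209), and Aqp7, a glycerol channel, at -0.55 ± 0.20 (edgeR adjusted p = 0.224).

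For time of day in sedentary mice, 3 of the 65 genes passed (4.62%, where 5.2% of all genes did), all lower at ZT12. G0s2, an inhibitor of the lipase that opens lipid droplets, had 51.7 ± 39.3 CPM in ZT12-SED and 107 ± 63.6 CPM in ZT0-SED (SD, n = 6 each), a log2 fold change of -1.32 ± 0.30 (edgeR adjusted p = 0.0124). Rxrg, a partner receptor of PPARs, was at -0.88 ± 0.19 (edgeR adjusted p = 0.00755), and Mlycd, the malonyl-CoA decarboxylase that relieves the block on CPT1, at -1.05 ± 0.30 (edgeR adjusted p = 0.0417). The difference of mean log2 CPM for Mlycd was -2.07 within flow cell 1 and -0.11 within flow cell 2, and with a GC content of 61.0% it did not pass with GC offsets. The 15 genes of mitochondrial β-oxidation had 0 called, with a median log2 fold change of -0.10, and so had the 11 tested genes of uptake and activation (0.08), the 7 of peroxisomal β-oxidation (-0.07), the 8 other thioesterases (-0.02) and the 4 tested in the set of other perilipins and uncoupling proteins (0.24).

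In exercised mice, 2 of the 65 passed (3.08%, where 1.65% of all genes did), both lower at ZT12. Rxrg had 30.9 ± 10.0 CPM in ZT12-EX and 50.4 ± 4.49 CPM in ZT0-EX (SD, n = 6 each), a log2 fold change of -0.78 ± 0.19 (edgeR adjusted p = 0.027). Aqp7 had 8.11 ± 2.37 CPM in ZT12-EX and 13.5 ± 0.809 CPM in ZT0-EX, at -0.76 ± 0.19 (edgeR adjusted p = 0.0424). Rxrg was called in sedentary and in exercised mice, comparisons that share no library but share the flow cells, and the 9 genes had none called in both. Its difference of mean log2 CPM in sedentary mice was -1.5 within flow cell 1 and -0.35 within flow cell 2. In exercised mice it was -1.13 within flow cell 1 and -0.40 within flow cell 2, and neither call held on flow cell 2 alone.

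The genes whose levels followed each of the 9 most closely over the 24 libraries, with flow cell means removed, differed from gene to gene. Cd36 was closest to Etfdh, with a Pearson correlation of 0.98, Cpt1b to Dnajc27 (0.97), Plin5 to D10Jhu81e (0.95) and Cpt1a to Usp22 (0.93). Plin2 was closest to Aldh7a1 (0.92), Angptl4 to Pdia5 (0.91), Acot1 to Dap3 (0.85), Acot2 to Nmnat3 (0.79) and Ucp3 to Qsox2 (0.70). The 3 genes closest to Cd36 had GC contents of 43.1 to 47.1% and the 3 closest to Plin5 of 56.2 to 59.0%, each toward the same end of the range as the gene itself. These ranges overlapped those around genes of middle GC content. The 3 closest to Cpt1a (51.3%) had 44.4 to 50.7% and the 3 closest to Plin2 (52.1%) had 50.3 to 57.9%. Among the 9 genes, the lowest pairwise correlations were -0.75 for Cpt1a with Acot1 and -0.68 for Plin2 with Cd36, and after Angptl4 with Plin2 the highest was 0.70 for Acot1 with Plin5. Library ZT12-EX 4 had the lowest Cpt1a (13.3 CPM) and the highest Acot1 (25.2 CPM) and Plin5 (183 CPM) of all 24. The correlations are not given without it. All these values are descriptions over libraries that share depth, base composition and groups.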

How the data were processed

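The authors deposited raw read counts, 1 table per library with a row for each Ensembl gene. Per the submitters' processing notes, the authors trimmed reads with Trimmomatic 0.39, aligned them with HISAT2 2.2.1 to GRCm39 and made the counts with featureCounts 2.0.1. Their settings, annotation release, strand and handling of shared reads are not stated there. Symbols, exon lengths and GC content came from GENCODE M21, and promoters from RefSeq. Rows without a symbol held 0.00128% of counts.

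Genes were kept by filterByExpr, scaled by TMM and fitted with edgeR 4.0.16 (R 4.3.3; robust quasi-likelihood) to all 24 libraries with group and flow cell as terms (19 residual degrees of freedom). Adjusted p-values are Benjamini-Hochberg over 15294 genes, with a threshold of 0.05. The shared spread may be too small for ZT12 and too large for ZT0 libraries (median residual SD of log2 CPM 0.466 and 0.33). On simulated data for time of day in sedentary mice (15170 genes), 69% of log2 changes of 1 and 99% of changes of 2 were recovered. The simulated counts held no flow cell effect, no GC trend and the same spread in every group. Recovery in the real data may therefore be lower. Count ratios used a pseudocount of 0.5 and 400 permutations within flow cells. Alternatives included DESeq2 1.42.0 and limma-voom (limma 3.58.1), and GC offsets from a lowess fit (span 0.3). Each label names a biological replicate. Within groups, all 60 pairs of libraries differed by far more than counting noise (chi-square of at least 13.3 per degree of freedom). The genes, lists and naming rule (the 9 genes, list genes that passed or had the smallest p, and the genes closest to each) were chosen with earlier results of these data known.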

Additional observations from a re-analysis of the deposited data

Results flagged for a closer look

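Of 36 sets of 6 values (9 genes in 4 groups), 3 held a value whose gap to its nearest neighbour was larger, as a share of the whole range, than Dixon's 95% limit for 6 values, which chance gives in about 1 in 20 sets. Cpt1a was lowest in ZT12-EX 4 at 13.3 CPM, with a gap of 0.70 of the range to the next library. In the same library Acot1 was highest at 25.2 CPM, with a gap of 0.78 of the range. ZT12-EX 4 also had the lowest share of mitochondrial transcripts (2.7%) and the highest cardiomyocyte marker sum (199000 CPM) of all 24 libraries. Acot1 was lowest in ZT0-EX 3 at 4.63 CPM, with a gap of 0.66 of the range, and Acot2 was lowest of its group in the same library at 21.1 CPM.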

How the results depend on the processing

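Of 14 alternatives, the count of the 9 genes called for time of day in sedentary mice (2 as reported) was 0 with library totals without TMM, on flow cell 2 alone and with the compared groups alone, 1 with no filter on low counts, with no flow cell term and without ZT12-SED 1, ZT12-SED 2 and ZT12-EX 4, and 4 on flow cell 1 alone. The shares of all genes called were 1.53, 0.231 and 1.69% in the settings with 0, in the order given. They were 1.51, 0.843 and 2.79% in those with 1, and 43.5% on flow cell 1 alone, against 5.2% as reported. Leaving out 1 library gave 1 to 3 of the 9 genes, with 1 without ZT12-SED 1 or 2 or any of ZT0-SED 1 to 4. Angptl4 passed in 11 of 14 alternatives and 24 of 24 leave-one-out fits (adjusted p 0.00676 to 0.0488), and Plin2 in 8 of 14 and 18 of 24. In exercised mice the count was 1 in place of 0 without the 3 libraries, and 0 to 1 on leaving out 1 library, in both cases Plin5. Without the 3 libraries 6.49% of all genes passed in exercised mice, against 1.65% as reported. Signs turned for Plin5 (0.25) and Cd36 (-0.11) in sedentary mice with GC offsets, and in exercised mice for Plin2 on flow cell 2 alone (0.05) and Cd36 on flow cell 1 alone (0.04); the cause was not tested. Signs were compared where the reported estimate, over all libraries, was at least 1 SE from 0. The SEs of the turned estimates were 0.25, 0.16, 0.22 and 0.30, in the order given, so each lay near or within 1 SE of 0. Leave-one-out ranges of the log2 ratio of Cpt1a to Cpt1b were -0.52 to -0.20 for exercise at ZT0, -0.37 to 0.53 at ZT12, 0.33 to 1.22 for time of day in sedentary and 0.92 to 1.55 in exercised mice, and those of Acot1 to Acot2 were -0.31 to -0.05, 0.06 to 0.54, -0.53 to -0.27 and -0.16 to 0.32. The ratio of Cpt1a to Cpt1b passed (exact permutation adjusted p = 0.04) without ZT0-EX 1, ZT12-SED 6 or ZT12-EX 6, each in its own comparison. Deviations of same-numbered mice correlated at 0.06 to 0.48 in all 6 pairs of ZT12-EX and ZT12-SED and with mixed signs in the other comparisons (-0.45 to 0.44), so not every pair was over 0.1. With the numbers as a block, 0 of the 9 genes were called for exercise at ZT12 (31 in place of 45 over all genes) and 2 in sedentary mice (608 in place of 795). The difference between exercise effects could not be fitted with the compared groups alone. Over all alternatives G0s2 passed in 36 of 38, Rxrg in 34 and Mlycd in 23 in sedentary mice, and Rxrg in 27 and Aqp7 in 18 in exercised mice. Of 1891 fold changes of these and the 9 genes under alternatives, 1815 kept their side of the threshold and were not counted as reversed. A further tally of 99 changed sign where the reported estimate lay within 1 SE of 0, and these were not counted as reversed. Depth limited Cpt1b most, with 1 count in ZT12-SED 1, and also Angptl4, with 6 counts there and 7 in ZT12-SED 2.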
